A study of Rattus norvegicus with 2 samples.

Results

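Cytosolic ribosomal protein genes were compared between 2 RNA sequencing libraries of H9c2 cells, rat myoblasts that were established from heart tissue of an embryo. Members were the rat protein-coding genes whose identifier maps to a symbol of the form Rpl or Rps plus a number (with final letters a, l, x or y allowed), or to Rplp0, Rplp1, Rplp2 or Rpsa, with the ribosomal S6 kinases left out. A minimum of 1 FPKM, averaged over both libraries, was required; FPKM is the number of mapped fragments of a gene scaled to its transcript length and to all mapped fragments of the library. This gave 48 members among 4366 measured genes, 29 of the large 60S subunit and 19 of the small 40S subunit. One further gene of this form, the muscle paralog Rpl3l, was listed at 0.06 FPKM in high phosphate and 0.09 FPKM in control phosphate and was under the minimum. The reference table of rat genes holds 79 such genes, and the other 30, among them Rps6, Rps27a, Rpsa, Rplp1 and Rplp2, were not analysed here.

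The high phosphate culture received 2.5 mM phosphate and the control culture 0.9 mM phosphate, both for 12 h and both without serum. The cells carried no other labelled treatment, and the study asked how raised phosphate changes the transcriptome of cardiomyoblasts. With 1 library per condition, none of the differences below has a replicate check, no test could be made and no p-value is given. Read counts were not part of the files, so the depth behind an FPKM value is not known. In such whole-culture RNA, fewer cells of a kind and less RNA per cell cannot be told apart.

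The line was checked against marker genes. Of 11 skeletal myoblast markers 6 were listed and 3 measured, and 2 of the 3 were lower in high phosphate. The muscle intermediate filament gene Des had 153 FPKM in high phosphate and 129 FPKM in control, the acetylcholine receptor subunit gene Chrnb1 1.77 and 3.16 FPKM, and the myogenic factor gene Myod1 1.59 and 6.11 FPKM. Of 13 cardiomyocyte markers 3 were listed and none was measured, with Myh7 and Ryr2 listed at 0 in both libraries and Nppa at 0.23 FPKM in high phosphate and 0.21 FPKM in control. All 4 listed endothelial markers were under 1 FPKM. Of 6 macrophage markers 4 were listed and 1 measured, Cd68, with 1.38 FPKM in high phosphate and 1.06 FPKM in control. The leukocyte gene Ptprc, on the same list, was at 0 in both libraries. Of 9 fibroblast markers 8 were listed and 6 measured, while Pdgfra and Tcf21 were under 1 FPKM in both libraries. Of the 6 measured 5 were higher, beside 50.5% of measured genes, with a list median log2 ratio of 0.65. Col3a1 had 844 FPKM in high phosphate and 489 FPKM in control, and Col1a1 only 1.8 and 0.79 FPKM. The summed level of the 6, 4427 FPKM in high phosphate and 4021 FPKM in control, is mostly S100a4, at 3249 and 3291 FPKM. Of 5 smooth muscle markers 4 were listed and 3 measured, while Myh11 was under the minimum with 0.61 FPKM in high phosphate and 0.6 FPKM in control. The 3 measured were all higher, beside 50.5% of measured genes, and summed to 3838 FPKM in high phosphate and 2520 FPKM in control. The part of these marker genes in the results below was not tested.

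Each ribosome holds, with few exceptions, 1 copy of each ribosomal protein, so cells make these proteins in near equal amounts. In vertebrates the mRNAs of almost all of them begin with a terminal oligopyrimidine tract, a C followed by further pyrimidines, through which mTORC1 and the binding protein LARP1 control their translation. Growth factors and nutrients act on that step, and RNA polymerase I makes most of the ribosomal RNA that the proteins bind.

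The bases around the annotated start hold a run of pyrimidines in most members. They are shown because the tract at the start of the mRNA is the sequence feature the genes share and the symbol rule did not use it. Windows of 30 bases, from 15 bases before the start to the start base and 14 bases after it, were taken from RefSeq promoters of the build GRCr8. Such sequence was found for 38 members. Capitals mark the longest unbroken run of C or T on the gene's strand where it reached 7 bases. The first 4 windows belong to the members with the highest log2 ratios of high over control phosphate and the next 4 to those with the lowest, described further on. The last 4 show a long run (Rps23), the stalk gene Rplp0, the most abundant member (Rpl41) and a paralog (Rps27l).
Rpl3 (chr7:113507976-113508005, minus strand): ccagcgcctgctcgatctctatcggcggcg
Rpl10a (chr20:6390518-6390547, plus strand): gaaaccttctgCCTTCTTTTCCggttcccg
Rpl22 (chr5:168117946-168117975, plus strand): gtagtgcgCCCCCCTCCCTTTCTgcctcct
Rpl19 (chr10:83519049-83519078, plus strand): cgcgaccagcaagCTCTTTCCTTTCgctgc
Rps24 (chr16:96502-96531, plus strand): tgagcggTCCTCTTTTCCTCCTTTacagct
Rpl34 (chr2:221962269-221962298, minus strand): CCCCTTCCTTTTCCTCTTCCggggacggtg
Rpl27a (chr1:172974558-172974587, plus strand): cgagacttggtgggCTCCTCCCTCTTTCTT
Rps15a (chr1:181860270-181860299, minus strand): cggcgTTTTCTTTCCacagtcaccatggtg
Rps23 (chr2:23814502-23814531, plus strand): tgggtccttcctgCCTCTCTTCTCTCTTTC
Rplp0 (chr12:46718376-46718405, minus strand): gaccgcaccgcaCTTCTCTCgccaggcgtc
Rpl41 (chr7:1563483-1563512, minus strand): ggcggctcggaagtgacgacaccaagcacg
Rps27l (chr8:76443643-76443672, plus strand): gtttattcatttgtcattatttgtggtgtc

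A run of at least 7 pyrimidines lay in the window of 30 of the 38 members (78.9%). Across all 19005 protein-coding promoters of the table the share was 17.3%, across 3609 measured genes 17.4% and across 44 measured genes of the mitochondrial ribosome 15.9%. On the opposite strand such a run lay in 1 of the 38 members (2.63%) and in 19.0% of all protein-coding promoters. It was as rare on that strand in the mitochondrial ribosome genes, with 1 of 44 (2.27%), so this scarcity is not particular to members. The run was common in members on the gene's own strand but not on the other. Annotated starts can be off by some bases, so a window without a run says only that no such run lies in those letters, as in Rpl3, Rpl41 and Rps27l. A run was counted wherever it lay in the window, so whether it begins at the first base of the mRNA was not tested. The run of Rps15a, for example, ended 1 base before the annotated start, and that of Rps28 began 4 bases after it.

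Such a run did not separate members by their difference between the libraries. The 30 members with a run had a median log2 ratio of 0.20 and ranged from -0.57 to 0.34, whereas the 8 without one had a median of 0.16 and ranged from -0.11 to 0.38. Rpl34 and Rps24, with the lowest log2 ratios, carry runs of 20 and 17 bases, while the window of Rpl3, with the highest log2 ratio, has no run longer than 5 bases. Short motifs were also searched on both strands of the 300-base promoters. CCGGAA, the core of ETS factor sites, lay in 16 of the 38 members (42.1%) and in 34.7% of measured genes. AAGATGG, a YY1 motif that can overlap the start codon, lay in 7 (18.4%) and in 9.39% of measured genes. GGGCGG, the Sp1 box, lay in 21 (55.3%) and 64.4%, ACGTG, the core of hypoxia response elements, in 15 (39.5%) and 28.9%, and CACGTG, the E-box bound by MYC, which contains ACGTG, in 5 (13.2%) and 11.0%.

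The members were among the most abundant transcripts of both libraries. Together they held 25.2% of the FPKM of all usable identifiers in high phosphate and 24.6% in control. The 60S genes held 14.0% in high phosphate and 13.7% in control, and the 40S genes 11.2% and 10.9%. Summed over members, high phosphate had 79959 FPKM and control 69363 FPKM, a ratio of 1.15, beside a ratio of 1.11 for the sum of all other usable identifiers. Of the 48 members, 41 averaged 500 FPKM or more, as did 60 other measured genes.

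Levels of single members differed widely. FPKM is relative to transcript length, so levels are set beside each other between genes. That holds only within the uncertainty of single members given below. The most abundant was Rpl41, a very short basic protein of the large subunit, with 4830 FPKM in high phosphate and 4209 FPKM in control. Rps29, a zinc-binding protein of the 40S head, had 4464 FPKM in high phosphate and 3770 FPKM in control. Rps28, which lies near the exit of the mRNA channel, had 3971 FPKM in high phosphate and 3452 FPKM in control. These 3 genes, with Rplp0, Rps2 and Rpl32, held 7.56% of the FPKM of usable identifiers in high phosphate and 7.26% in control. Rps2, at the mRNA entry, had 3407 FPKM in high phosphate and 2953 FPKM in control, and Rpl32 had 3357 and 2878 FPKM.

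At the other end, 6 members had a mean under 200 FPKM, a bound chosen after the values were seen. Rpl28, a large subunit protein, was listed at 1.79 FPKM in high phosphate and 1.81 FPKM in control, far under the median member level of 1380 FPKM. Rps24, a small subunit protein needed for processing of 18S rRNA, was listed at 3.67 FPKM in high phosphate and 5.91 FPKM in control. Rps15a had 86.8 FPKM in high phosphate and 95.2 FPKM in control. Rpl34 had 94.1 FPKM in high phosphate and 133 FPKM in control. Rpl5 had 152 and 145 FPKM and Rps27l 181 and 195 FPKM in high phosphate and control. All 6 were under every other member in both libraries except that Rps27l exceeded Rpl15 in control.

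Ribosomal protein genes have many processed copies. The sources used here do not say how reads matching several copies were handled, so the level of a single member is uncertain. The GRCr8 table names 883 ribosomal protein pseudogenes, of which 525 carry the symbol of a member. Their number per member ran from 0 for Rps27l to 36 for Rps2, with a median of 11. The 6 members under 200 FPKM had 0 to 13 named copies, with a median of 7.5. Across the 48 members Spearman's rho of the number of copies was 0.22 with the level and 0.09 with the log2 ratio, which describes these genes only. The part of copies in the low values was not tested.

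**Figure D1:**
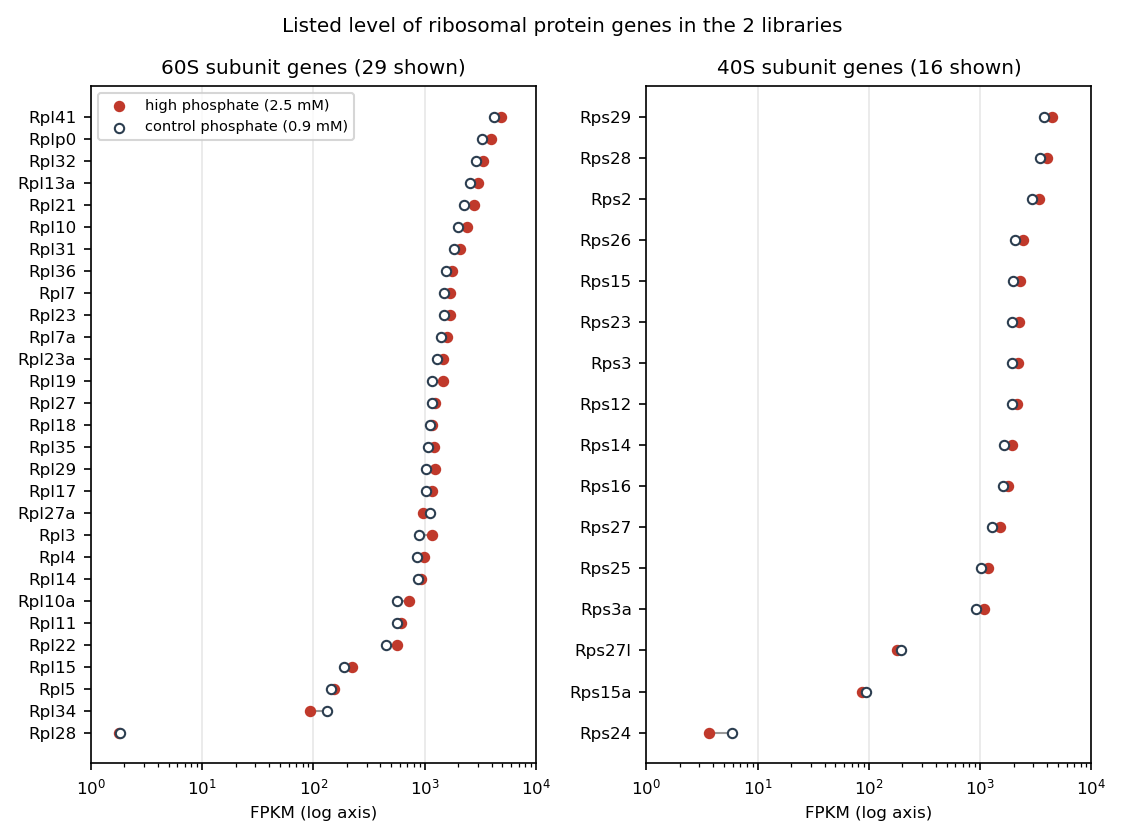
Listed FPKM of 45 of the 48 members (log axis) in the high phosphate library (filled) and the control library (open), 60S genes left and 40S genes right, 1 library each. Most genes stand above 500 FPKM with the filled point to the right, while Rpl28 and Rps24 lie under 10 FPKM and Rpl34, Rps15a, Rps27l, Rpl27a and Rps24 have the filled point to the left; both points of Rpl28 overlap.

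The difference between the libraries was taken as log2((high phosphate FPKM + 1)/(control FPKM + 1)), which understates differences of low genes. Most members were slightly higher in high phosphate, by nearly the same factor. Of the 48 members 42 were higher and 6 lower, beside 50.5% higher and 49.4% lower among all measured genes. The median log2 ratio was 0.20 for members and 0.00 for all measured genes, and 34 members lay within 0.1 of the member median. No member reached a 2-fold difference, a size reached by 1.76% of measured genes upward and 0.87% downward. At 1.5-fold there was no member either, beside 7.21% of measured genes upward and 3.37% downward. A log2 ratio of at least 0.32 in size was reached by 3 members upward (Rpl3, Rpl10a and Rpl22) and by 2 downward (Rpl34 and Rps24), beside 17.4% and 12.0% of measured genes.

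The position of the members' median depended on how the libraries were scaled to each other. Rescaling to the same median ratio or the same upper quartile of measured genes left 42 members higher, with medians of 0.19 and 0.17. Rescaling to the same sum without the 100 most abundant entries left 39 higher and 9 lower, with a median of 0.11. The 2 rescalings to a sum that kept the other abundant entries moved the median most. Listed FPKM summed to 346857 in high phosphate and 307622 in control. After rescaling to the same sum, the members' median log2 ratio was 0.03 and that of all measured genes -0.15, with 33 members higher and 15 lower, beside 32.2% of measured genes higher and 67.8% lower. The members' median stood above that of all measured genes by 0.19 as deposited and by 0.18 after this rescaling. Abundant genes as a whole shared this position. Among the 60 other genes at 500 FPKM or more, 47 were higher (78.3%) and 13 lower (21.7%), and their median log2 ratio was 0.24. The 41 members at that level had 40 higher and a median of 0.20.

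Members differed from other abundant genes in spread rather than in centre. The interquartile range of log2 ratios was 0.06 for the 41 members of at least 500 FPKM and 0.41 for the 60 other genes at that level. Over these 41 members the log2 ratio ran from -0.20 to 0.38, and over the 60 others from -0.27 to 1.44. With 1 library per level this describes how alike the genes of one family were listed, and the spread that a pair of control cultures would show was not measured.

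**Figure D2:**
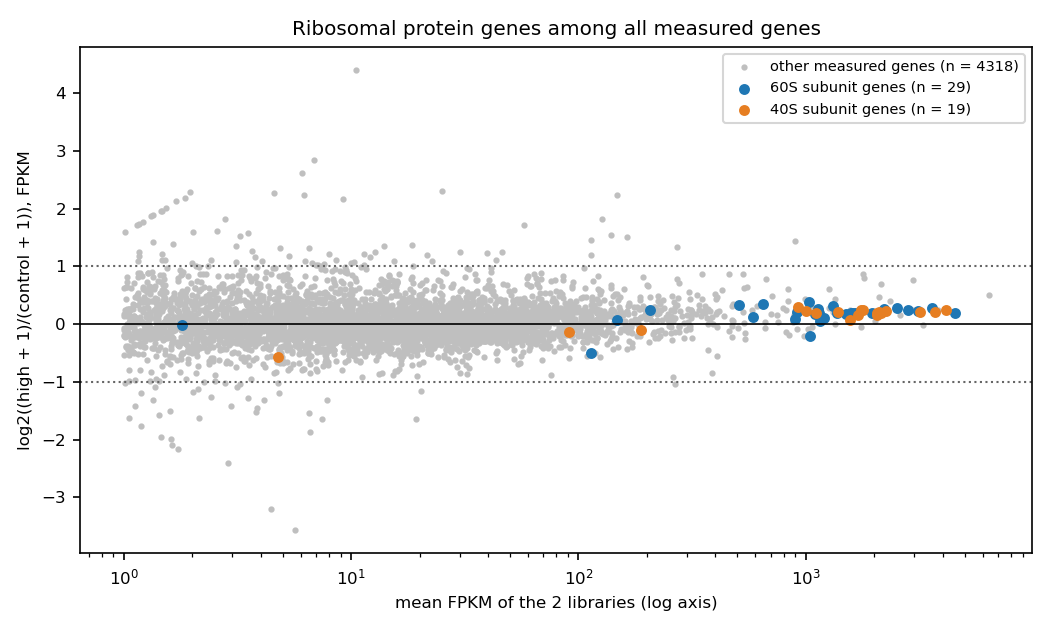
Log2 ratio of high over control phosphate against mean FPKM (log axis) for the 48 members, coloured by subunit, and 4318 other measured genes in grey, with dotted lines at a 2-fold difference and a solid line at the median of all measured genes. The 41 members of at least 500 FPKM form a narrow band with a median of 0.20, and the members outside the band lie at lower levels except Rpl27a.

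The 2 subunits were alike. The median log2 ratio was 0.20 for 60S genes, 26 of 29 of which were higher, and 0.20 for 40S genes, 16 of 19 of which were higher. Among all members, the highest log2 ratios belonged to large subunit genes. Rpl3, which lies close to the peptidyl transferase centre, had 1171 FPKM in high phosphate and 898 FPKM in control, a log2 ratio of 0.38. Rpl10a had 723 FPKM in high phosphate and 569 FPKM in control, a log2 ratio of 0.34.

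Of the stalk, the flexible arm that recruits elongation factors, Rplp0 was the measured member. It encodes the base of the stalk and had 3938 FPKM in high phosphate and 3247 FPKM in control, a log2 ratio of 0.28. Rpl10, which joins the large subunit late and completes it, had 2414 FPKM in high phosphate and 2009 FPKM in control. Rpl21 had 2753 FPKM in high phosphate and 2274 FPKM in control. Both had log2 ratios close to that of Rplp0, at 0.26 and 0.28.

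All 7 measured genes of the nascent peptide exit tunnel and its rim were higher, from 0.17 for Rpl17 to 0.34 for Rpl22. Their median log2 ratio was 0.20, the same as among all members, of which 87.5% were higher, beside 50.5% of measured genes. All 7 averaged 500 FPKM or more, where 40 of 41 members were higher. Rpl22 had 565 FPKM in high phosphate and 447 FPKM in control. Rpl19 had 1455 FPKM in high phosphate and 1171 FPKM in control, a log2 ratio of 0.31. Rpl4, a wall of the tunnel, had 986 FPKM in high phosphate and 850 FPKM in control. Rpl17, its neighbour in the wall, had 1162 FPKM in high phosphate and 1032 FPKM in control. The rim genes Rpl23a, Rpl31 and Rpl35 had log2 ratios of 0.19, 0.20 and 0.19. After rescaling to the same sum 6 of these 7 were higher, beside 68.8% of members and 32.2% of measured genes, and Rpl17 lay just under 0.

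Rpl5 and Rpl11 join the 5S ribosomal RNA in a particle that, when not built into ribosomes, binds MDM2 and stabilises p53. They were higher by less than most members, with log2 ratios of 0.07 and 0.12. Rpl11 had 610 FPKM in high phosphate and 562 FPKM in control, and Rpl5, at a lower level, had 152 and 145 FPKM. Both were lower after rescaling to the same sum, at -0.11 for Rpl5 and -0.05 for Rpl11. Of the genes listed for this p53 pathway, 2 were measured. The p53 target Cdkn1a had 5.6 FPKM in high phosphate and 1.73 FPKM in control, and Cdkn2a, whose product ARF acts on MDM2, had 57.3 and 45.6 FPKM.

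In the 40S head all 8 measured genes were higher, beside 87.5% of members and 50.5% of measured genes. All 8 averaged 500 FPKM or more, a level at which 40 of 41 members were higher. The median log2 ratio of the 8 was 0.20, the same as among all members, and Rps12 was lowest with 0.16. Rps12 had 2164 FPKM in high phosphate and 1942 FPKM in control. After rescaling to the same sum 6 of the 8 were higher. A list of genes mutated in Diamond-Blackfan anaemia, a human failure of red cell production, had 12 measured genes. The list may be incomplete and does not hold Rps15a, which was lower. Of the 12 genes 11 were higher (91.7%, beside 87.5% of members) and Rps24 lower, with a median of 0.19. After rescaling to the same sum 7 of the 12 were higher (58.3%, beside 68.8% of members and 32.2% of measured genes).

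The 6 members that were not higher were Rps24, Rpl34, Rpl27a, Rps15a, Rps27l and Rpl28. Rps24 had the lowest log2 ratio, -0.57, and Rpl34 the next, -0.50. Rps15a and Rps27l had -0.13 and -0.11, and Rpl28 -0.01. These 5 are 5 of the 6 members with a mean under 200 FPKM, the other being Rpl5. Rpl27a was the exception among abundant members, with 969 FPKM in high phosphate and 1112 FPKM in control, a log2 ratio of -0.20. Just above these stood Rpl18, with 1172 FPKM in high phosphate and 1127 FPKM in control. Across members, Spearman's rho between level and log2 ratio was 0.37. Without the 6 members under 200 FPKM, 41 of 42 were higher.

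The other members lay between these groups. Rpl29, Rpl13a, Rpl15, Rps14, Rps3a, Rps26, Rps27, Rps23, Rpl36, Rps3, Rps25, Rps15, Rpl7, Rpl23, Rpl7a, Rps16, Rpl27 and Rpl14 were each higher, from 0.09 for Rpl14 to 0.25 for Rpl29. Their levels ran from 224 FPKM in high phosphate and 190 FPKM in control for Rpl15 to 3039 and 2575 FPKM for Rpl13a.

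**Figure D3:**
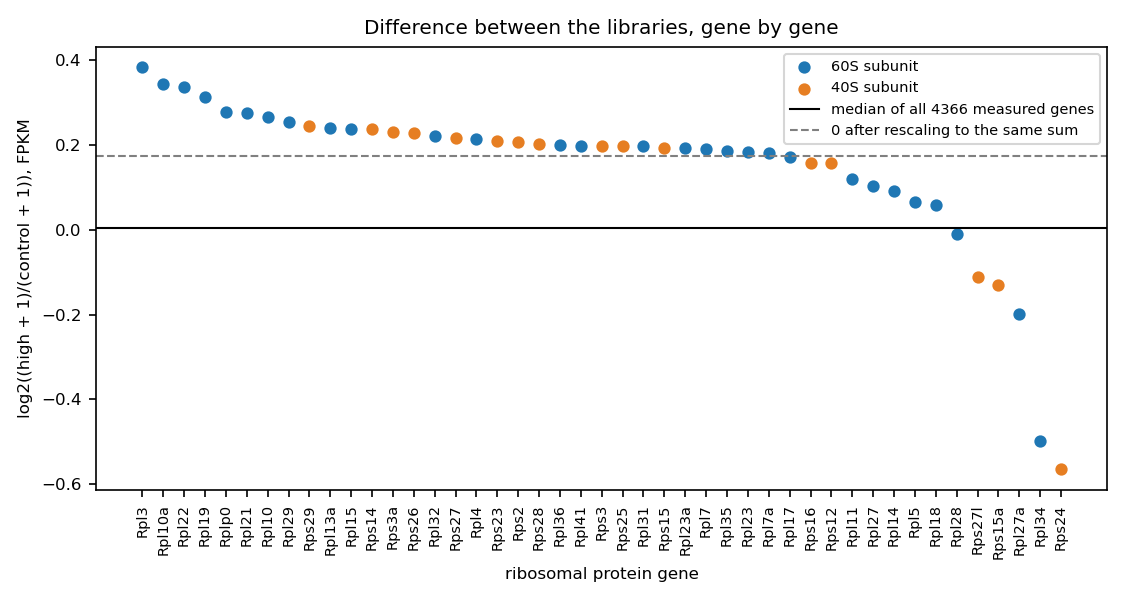
Log2 ratio of high over control phosphate for 45 of the 48 members in falling order, coloured by subunit. The solid line is the median of all 4366 measured genes and the dashed line shows where 0 lies after rescaling both libraries to the same sum; Rpl3 stands highest at 0.38, most genes lie between 0.15 and 0.30, and Rpl34 and Rps24 stand apart at -0.50 and -0.57.

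Paralogs of ribosomal proteins can replace their parents in ribosomes of some tissues. Rps27l, which in human and mouse cells is a p53 target, stood at 12.1% of the level of Rps27 in high phosphate and 15.2% in control. Rps27 itself had 1494 FPKM in high phosphate and 1286 FPKM in control, so the parent was higher and the paralog lower. Rpl22l1, the paralog of Rpl22 that lies outside the symbol rule, had 238 FPKM in high phosphate and 228 FPKM in control, or 42.1% of Rpl22 in high phosphate and 50.9% in control. Rpl39l1 had 8.59 FPKM in high phosphate and 7.55 FPKM in control.

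Of other genes with an oligopyrimidine tract, 9 were measured. The list had 7 higher genes (77.8%, beside 50.5% of measured genes) and a median log2 ratio of 0.13. Most of the 9 averaged 500 FPKM or more. Among the 60 measured genes at that level that are not members, 78.3% were higher and the median was 0.24. The list thus did not exceed other abundant genes. The highest were 2 elongation factor genes. Eef2, which moves the ribosome along the mRNA, had 1390 FPKM in high phosphate and 1145 FPKM in control, and Eef1a1, which brings aminoacyl-tRNA, had 4164 and 3496 FPKM. The lowest were the elongation factor subunit gene Eef1b2, with 493 FPKM in high phosphate and 516 FPKM in control, and the nucleolar chaperone Npm1, which is also on the assembly list below, with 513 and 571 FPKM. After rescaling to the same sum 4 of the 9 were higher (44.4%, beside 32.2% of measured genes).

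Genes that build ribosomes lay on the other side of the median. Of 72 measured ribosome assembly genes 66 were lower (91.7%, beside 49.4% of measured genes), with a median log2 ratio of -0.29, and 69 were lower after rescaling to the same sum (95.8%, beside 67.8% of measured genes). The lowest were Nmd3, the export adaptor of the 60S subunit, with 12.2 FPKM in high phosphate and 28.3 FPKM in control (log2 ratio -1.16), and Abce1, which splits ribosomes for reuse, with a log2 ratio of -0.91. The highest were Tex10, with 3.1 FPKM in high phosphate and 1.05 FPKM in control, and the box C/D snoRNP protein Nop58, with 3.55 and 1.99 FPKM. Between a mean of 10 and 100 FPKM, 58 of 59 assembly genes were lower, beside 52.6% of the 2096 measured genes at that level that were not ribosomal protein genes.

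Nucleolar proteins of the list were named after their values were seen. Ncl, a nucleolar RNA-binding protein, had 266 FPKM in high phosphate and 317 FPKM in control. Fbl, the methyltransferase of ribosomal RNA, had 106 FPKM in high phosphate and 128 FPKM in control. Ncl and Fbl had log2 ratios of -0.25 and -0.27, against 0.20 for the median ribosomal protein gene, and no cause of this contrast was tested.

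The RNA polymerase I machinery, which transcribes ribosomal RNA, had 6 lower genes among 8 measured, beside 49.4% of measured genes, and a median log2 ratio of -0.20. The 4 of them under 10 FPKM were all lower. Of the 4 at higher levels 2 were lower and 2 higher, and the median of these 4 was -0.064. Polr1b, the second largest subunit, had 4.95 FPKM in high phosphate and 8.03 FPKM in control, and Polr1g 15.9 and 21.6 FPKM. Polr1d, which is shared with RNA polymerase III, had 67.8 FPKM in high phosphate and 62.1 FPKM in control, and Polr1h 30.9 and 29.4 FPKM. All 8 were lower after rescaling to the same sum, beside 67.8% of measured genes.

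The list of mTORC1 genes and regulators of oligopyrimidine mRNAs also holds Myc, Max and Mxi1. The gene of LARP1 is not among its measured genes. The list was divided, with 9 of 17 measured genes higher and 8 lower, and had a median log2 ratio of 0.02. Its share of higher genes was close to that of all measured genes (50.5%). The counts were 4 higher and 13 lower after rescaling to the same sum, beside 67.8% of measured genes lower. The mTORC1 inhibitor Ddit4 and the MYC antagonist Mxi1 were over 2-fold higher, with 27.1 and 8.91 FPKM in high phosphate and 9.83 and 3.63 FPKM in control. The lowest were Lamtor3, a lysosomal anchor of mTORC1, with 4.03 FPKM in high phosphate and 7.13 FPKM in control, and the S6 kinase gene Rps6kb2, with 22.6 and 28.2 FPKM. Named after their values were seen, Eif4ebp1, the translation repressor that mTORC1 switches off, had 145 FPKM in high phosphate and 86.4 FPKM in control, and Myc had 42.2 and 32.4 FPKM. Mtor itself had 3.28 FPKM in high phosphate and 3.22 FPKM in control. These are RNA levels, and the activity of mTORC1 was not measured.

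Mitochondrial ribosomal protein genes, which encode the separate ribosome of mitochondria, had a lower median log2 ratio than the cytosolic ones. Of 55 measured, 41 were lower (74.5%, beside 49.4% of measured genes) and 14 higher, with a median log2 ratio of -0.14 and an interquartile range of 0.28. Rescaled to the same sum, 51 were lower (92.7%, beside 67.8% of measured genes). The highest were Mrps16, with 66.3 FPKM in high phosphate and 48.5 FPKM in control, and Mrpl14, with 59.5 and 44.0 FPKM. The lowest were Mrps12, with 11.6 FPKM in high phosphate and 20.7 FPKM in control, and Mrpl48, with 2.0 and 3.67 FPKM. Their levels were far lower than those of cytosolic ribosomal protein genes, with a median of 36.3 FPKM beside 1380 FPKM, and with no replicate the difference between these families has no test.

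**Figure D4:**
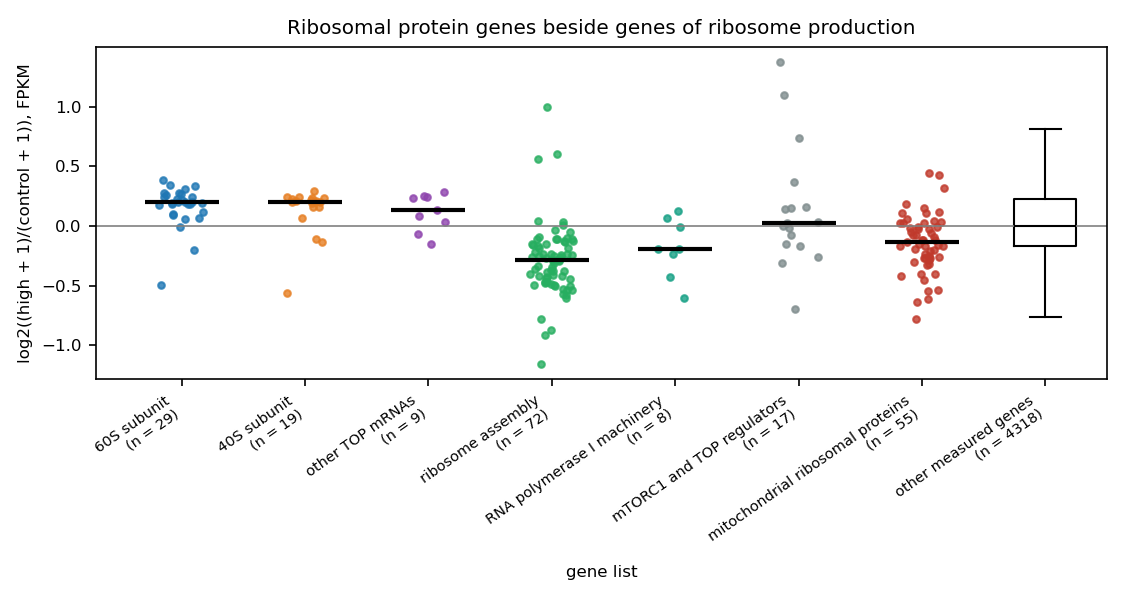
Log2 ratio of high over control phosphate for each measured gene (points) of 7 lists, with the list median as a black bar, beside a box plot of 4318 other measured genes (box: quartiles, line: median, whiskers: up to 1.5 interquartile ranges). Medians are 0.20 for both ribosomal subunits, 0.13 for other oligopyrimidine mRNAs, -0.29 for ribosome assembly, -0.20 for RNA polymerase I, 0.02 for regulators and -0.14 for mitochondrial ribosomal proteins.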

How the data were processed

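RNA from 1 high phosphate and 1 control culture of H9c2 cells was sequenced. The authors deposited FPKM with 2 decimals, per the file headers. Named in the submitters' processing notes are the build Rnor_6.0 and Cufflinks 2.2.1, TopHat2 2.1.1, Cuffdiff and bcl2fastq. Not given in the sources used here are the role of each tool, the annotation, the strand setting, the handling of reads matching several places and any scaling between libraries. Of 8039 entries, 236 had no usable identifier (damaged or over 9 digits) and were left out; 7746 of the 7803 others matched a symbol in a RefSeq table for GRCr8, used for names and promoter sequence only.

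Log2 ratios used a pseudocount of 1 on FPKM as deposited, for the 4366 genes that averaged 1 FPKM or more. Depth is unknown, so no counting interval is given. The members and gene lists were chosen with earlier results of these data known. A list's median and counts were set beside those of all measured genes, with no test. Named were the 8 highest and 8 lowest log2 ratios, the 6 most and 6 least abundant members, members of the structural and paralog lists, and up to 2 genes at each end of the other lists; exceptions are stated, and some genes that this rule selects are left out of the text and of the plots by gene. Alternatives were other pseudocounts (0.1 and 0.5), 5 rescalings, other filters on low values and fold thresholds, and other denominators of shares. Calculations were tested on simulated data and used matplotlib 3.10.9, scipy 1.17.1, pandas 2.3.3, numpy 2.4.6 and Python 3.11.15.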

Additional observations from a re-analysis of the deposited data

Results flagged for a closer look

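Signal lay in listed entries that the comparison of ribosomal protein genes did not use. Rps14-ps7, which the reference table marks as a transcribed pseudogene, was listed at 266 FPKM in high phosphate and 243 FPKM in control, a log2 ratio of 0.13. That is 13.9% of the level of Rps14 in high phosphate and 14.9% in control. Entries without a usable identifier held 8.56% of all listed FPKM in high phosphate and 8.20% in control, and whether ribosomal protein genes are among them was not tested.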

How the results depend on the processing

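Of 224 values recomputed under another setting, 188 moved by less than 0.1 log2 units, 1 percentage point or 1.5 times, and 36 moved by more. The median of all measured genes was -0.15 after rescaling to the same sum and -0.14 after rescaling to the same sum without the members. Under these 2 settings, in that order, the median log2 ratio was 0.025 and 0.035 for members, 0.024 and 0.034 for 60S genes, 0.029 and 0.038 for 40S genes, 0.024 and 0.034 for exit tunnel genes, 0.025 and 0.034 for 40S head genes, 0.019 and 0.028 for Diamond-Blackfan anaemia genes, -0.11 and -0.10 for paralogs, -0.040 and -0.030 for other oligopyrimidine mRNAs, -0.45 and -0.44 for ribosome assembly, -0.36 and -0.35 for RNA polymerase I, -0.13 and -0.12 for regulators and -0.31 and -0.30 for mitochondrial ribosomal proteins. The members lower were 15 and 14. Among genes of at least 10 FPKM, RNA polymerase I had -0.064 and regulators 0.14. One member was lower among those of at least 500 FPKM and without those under 200 FPKM, both chosen after seeing the data. At a log2 ratio of at least 0.32 in size, 3 members were higher and 2 lower. The members' share was 23.1% in high phosphate and 22.5% in control over all entries, and 28.3% and 27.1% without the 10 most abundant other genes. These shifts follow from the construction of each setting. No paired analysis was possible because each phosphate level had 1 library, and the unknown depth limits genes of low FPKM most.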
